A study of Homo sapiens with 12 samples.

Results

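The 37 genes described here carry cells from G1 into S phase and copy their DNA. They were taken from a list of licensing, replication fork, nucleotide synthesis and E2F genes, chosen by function by a rule that used no measured value (earlier results of these data were known when the list was made), and all 37 were found among the 36315 genes of the tables and passed the filter that left 21601 genes for testing. By role, 14 license origins or unwind DNA, 10 form the clamp, its loader, the polymerases and the flap nuclease, 4 make deoxynucleotides, 5 are E-type cyclins and E2F factors, and 4 supply histones or act on chromatin. RNA was measured in HMC3, an immortalized human cell line labelled as microglia from brain, in 4 groups of 3 libraries. Ctrl cells received the neg ctrl siRNA and Ctrl-Fc, and EphB2 cells the neg ctrl siRNA and EphB2-Fc, a soluble form of the receptor that binds ephrin-B ligands. The ephrin-B1 siRNA group received ephrin-B1 siRNA and Ctrl-Fc, and the EphB2 + ephrin-B1 siRNA group, called the combined group below, received ephrin-B1 siRNA and EphB2-Fc. Every group was transfected for 48 h and then exposed to 2 ug/mL of a pre-clustered Fc protein for 24 h, so that each control also carries an siRNA and an Fc protein. All libraries come from 1 immortalized line, and nothing in the labels says whether libraries of 1 group came from separate cultures, beyond an experiment number that libraries of the same replicate number share.

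In the textbook account, CDC6 and CDT1 load the MCM2 to MCM7 ring onto origins in G1, CDC45 and the GINS complex turn that ring into the active helicase, and PCNA, loaded by replication factor C, holds the polymerases on DNA. Cyclin E with its kinase releases E2F factors from the retinoblastoma protein, and E2F sites lie in the promoters of many of these genes. Ribonucleotide reductase (RRM1 and RRM2), thymidylate synthase (TYMS) and thymidine kinase (TK1) feed the deoxynucleotide pool.

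Promoter windows of 300 bases, from 250 before to 50 after the start site, were held for 32 of the 37 genes in the RefSeq promoter table of build GRCh38.p14. MCM4, MCM5, GINS4, CCNE2 and E2F8 had none. Searched on both strands for the 8-letter E2F words TTTCCCGC, TTTGGCGC, TTTCGCGC and TTTGCCGC, 18 of these 32 genes held a match. Some genes have several windows, and counted by window the share was 46.3% (19 of 41) against 3.31% of all 35116 windows in the table. The CCAAT box (CCAAT), the site of the factor NF-Y, stood in 25 of the 41 windows of the 37 genes and in 34.6% of all windows. The CHR element (TTTGAA or TTCGAA), known from promoters of mitotic genes, stood in 4.88% of them and in 16.4% of all windows, while a list of 44 G2/M genes had it in 68.0% of its windows and an E2F match in 8.0%. A match is a run of letters and not a measured site, and no binding was measured here.

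The 5 windows below belong to the genes with an E2F match that had the smallest p in EphB2 vs Ctrl, and their capitals mark the E2F matches. They are MCM6 (chr2:135876394-135876693, minus strand), CDC6 (chr17:40287629-40287928, plus strand), the first of the UHRF1 windows (chr19:4909251-4909550, plus strand), RFC3 (chr13:33817899-33818198, plus strand) and GINS1 (chr20:25407423-25407722, plus strand).
MCM6: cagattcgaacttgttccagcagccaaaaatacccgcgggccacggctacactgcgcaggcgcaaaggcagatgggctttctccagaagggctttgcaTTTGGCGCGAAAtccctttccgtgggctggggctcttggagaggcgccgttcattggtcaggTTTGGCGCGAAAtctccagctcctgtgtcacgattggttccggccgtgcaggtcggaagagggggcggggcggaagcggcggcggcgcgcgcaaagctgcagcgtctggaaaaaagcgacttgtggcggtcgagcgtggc
CDC6: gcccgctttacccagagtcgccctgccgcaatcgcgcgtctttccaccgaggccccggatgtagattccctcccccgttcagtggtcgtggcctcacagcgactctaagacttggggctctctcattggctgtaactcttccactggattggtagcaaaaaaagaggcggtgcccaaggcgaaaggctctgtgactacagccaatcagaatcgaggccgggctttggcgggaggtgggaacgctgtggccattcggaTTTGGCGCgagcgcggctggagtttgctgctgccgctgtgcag
UHRF1: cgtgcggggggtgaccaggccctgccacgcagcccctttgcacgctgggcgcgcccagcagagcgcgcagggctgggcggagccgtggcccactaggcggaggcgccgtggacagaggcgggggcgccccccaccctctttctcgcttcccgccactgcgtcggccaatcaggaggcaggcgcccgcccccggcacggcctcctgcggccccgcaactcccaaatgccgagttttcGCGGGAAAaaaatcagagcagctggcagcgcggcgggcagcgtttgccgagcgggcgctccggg
RFC3: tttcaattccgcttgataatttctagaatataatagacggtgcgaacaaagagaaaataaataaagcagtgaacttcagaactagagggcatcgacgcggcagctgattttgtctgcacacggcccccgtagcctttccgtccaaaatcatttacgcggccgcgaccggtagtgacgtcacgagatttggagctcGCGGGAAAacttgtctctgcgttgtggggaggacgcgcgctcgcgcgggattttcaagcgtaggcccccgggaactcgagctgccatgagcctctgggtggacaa
GINS1: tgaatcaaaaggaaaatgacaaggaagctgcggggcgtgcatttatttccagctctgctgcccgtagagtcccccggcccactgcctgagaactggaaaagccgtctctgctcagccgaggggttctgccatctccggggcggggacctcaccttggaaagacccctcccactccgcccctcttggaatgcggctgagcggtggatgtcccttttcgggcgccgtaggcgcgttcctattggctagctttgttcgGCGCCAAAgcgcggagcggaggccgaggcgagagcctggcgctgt
In MCM6 the same 12-letter run TTTGGCGCGAAA occurs at 2 places, and each run holds 2 overlapping matches, 1 on each strand, so the window counts 4. RRM2 and TK1 had no E2F match in any of their windows. They are shown because their RNA fell after ephrin-B1 siRNA, and so were chosen after their values were seen, with CCAAT boxes in capitals. The RRM2 window is chr2:10122489-10122788 (plus strand) and the TK1 window is chr17:78187003-78187302 (minus strand).
RRM2: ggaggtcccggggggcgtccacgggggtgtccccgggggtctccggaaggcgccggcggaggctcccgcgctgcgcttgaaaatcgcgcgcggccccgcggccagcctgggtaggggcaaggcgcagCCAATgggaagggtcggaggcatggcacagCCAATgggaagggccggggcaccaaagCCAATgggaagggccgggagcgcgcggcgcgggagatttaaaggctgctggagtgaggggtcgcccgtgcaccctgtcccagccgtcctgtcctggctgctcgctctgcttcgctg
TK1: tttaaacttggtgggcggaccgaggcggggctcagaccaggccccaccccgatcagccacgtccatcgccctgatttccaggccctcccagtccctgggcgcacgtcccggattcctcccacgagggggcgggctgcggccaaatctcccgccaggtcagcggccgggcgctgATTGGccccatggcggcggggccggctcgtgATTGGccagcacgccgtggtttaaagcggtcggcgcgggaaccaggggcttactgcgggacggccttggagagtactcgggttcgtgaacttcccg
RRM2 held 3 CCAAT boxes in this window, which start 123, 93 and 66 bases before the start site, and TK1 held 2 in the reverse direction, at 77 and 46 bases before it.

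**Figure D1:**
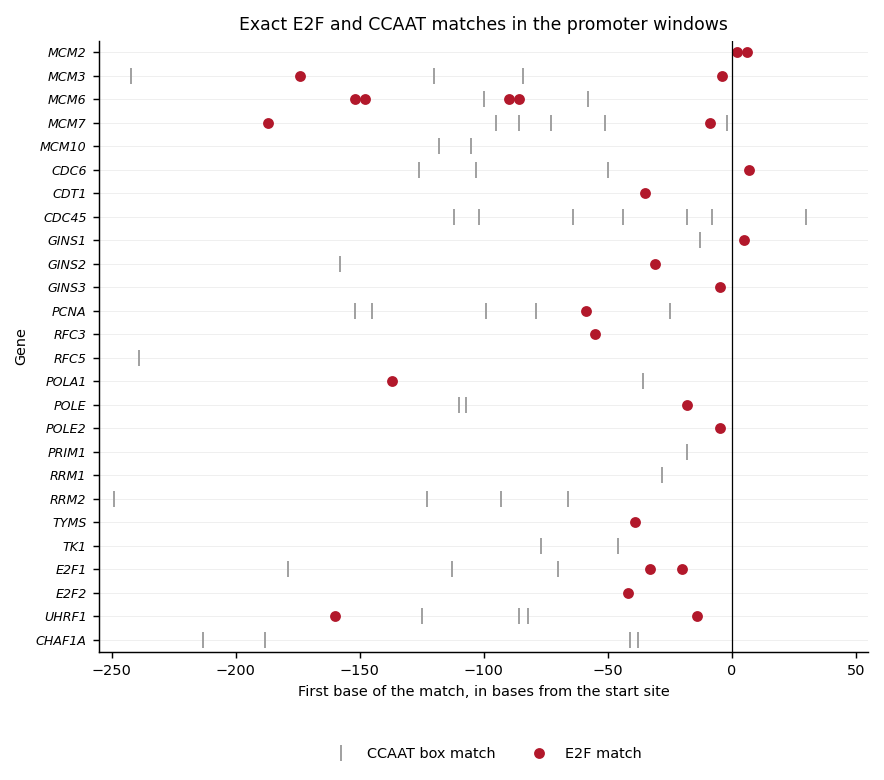
First base of each E2F match (red points) and each CCAAT box (grey ticks) in bases from the start site, for the 26 genes with either match; the windows of genes with several start sites are drawn on 1 line. E2F matches lie between 187 bases before (MCM7) and 7 bases after (CDC6) the start site.

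The libraries held between 13230689 and 25785591 estimated counts (median 18694233). The RNA targeted by the siRNA, EFNB1 (ephrin-B1), was at 20.4, 17.5 and 19.3 CPM (counts scaled to the library size after TMM normalization) in Ctrl and at 7.1, 6.6 and 8.7 in the ephrin-B1 siRNA libraries, a difference of -1.35 ± 0.13 on the log2 scale (± SE, the standard error of the fit; adjusted p = 0.00124 by edgeR's quasi-likelihood test with Benjamini-Hochberg adjustment). Against EphB2 alone it fell by 1.47 ± 0.13 in the combined group (adjusted p = 0.00189). Of 10 microglia markers, 4 had a median above 1 TPM (transcript counts per length, scaled to a common total), among them CD68, CSF1R and TMEM119, while AIF1, CX3CR1, P2RY12 and SPI1 had medians of 0.0133 or less, and the mesenchymal gene COL1A1 ranged from 662 to 1200.0 TPM. The summed level of the 8 mesenchymal markers was between 4230 and 5660 TPM in Ctrl, 3820 and 4690 in EphB2, 4230 and 4550 in ephrin-B1 siRNA and 2950 and 3840 in the combined group, and the summed microglia markers were at 132 to 163, 156 to 178, 159 to 214 and 147 to 167 TPM in the same order. The part of these differences in the results below was not tested. In such bulk RNA, fewer cells in S phase and less RNA per cell cannot be told apart.

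Every one of the 37 genes was expressed, with at least 145 counts (CCNE1) in each library. Per transcript length, the highest level in Ctrl was that of TK1, at 525 ± 54 TPM (SD, n = 3). RRM2, the small subunit of ribonucleotide reductase, followed at 331 ± 47.6 TPM and the clamp PCNA at 282 ± 60 TPM, and these 2 overlapped (300 to 385 against 243 to 351). The helicase subunits MCM7 (229 ± 13.9 TPM) and MCM4 (223 ± 41.6 TPM) also overlapped. The lowest levels were those of the factors E2F8 (10.3 ± 2.21 TPM) and E2F2 (3.04 ± 0.902 TPM) and of cyclin E1, CCNE1 (9.78 ± 2.14 TPM), while E2F1 was at 90.3 ± 12.7 TPM. The helicase ring itself ranged from 55.5 ± 9.79 TPM (MCM6) to the level of MCM7, and the GINS subunits from 18.9 ± 2.23 TPM (GINS3) to 41.9 ± 5.14 TPM (GINS4).

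**Figure D2:**
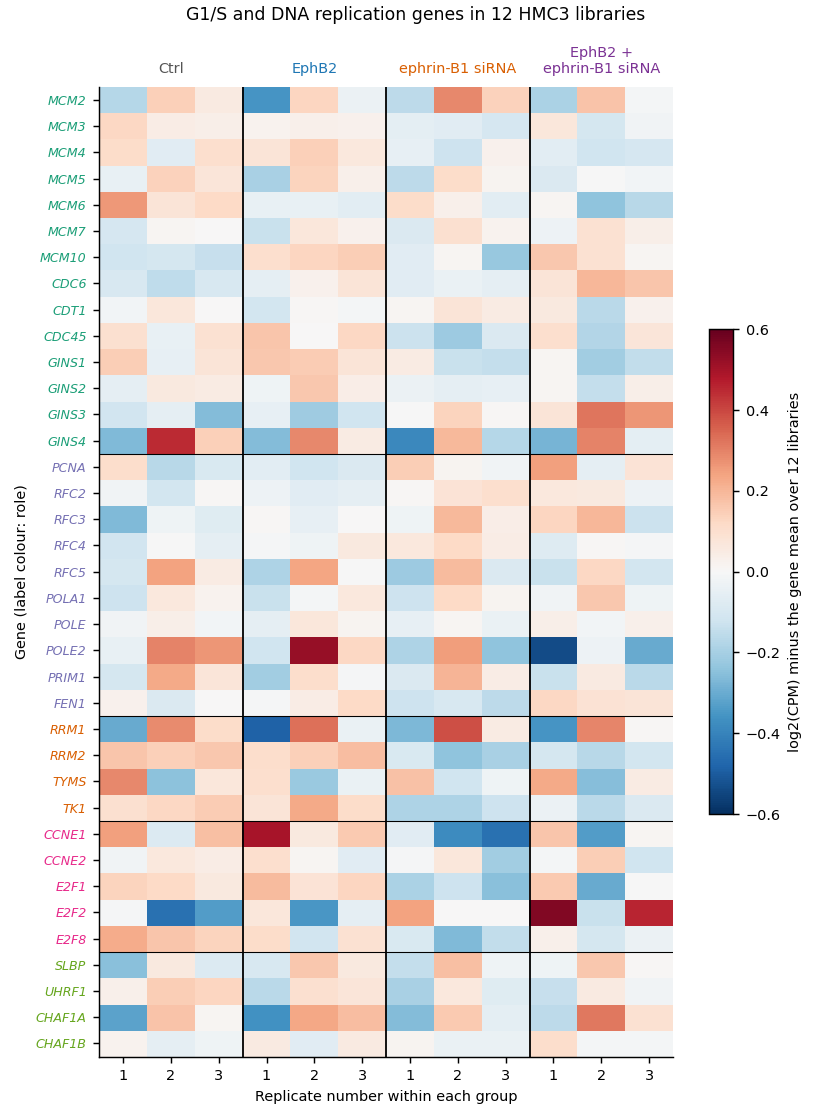
log2 of CPM of each gene in each library minus the mean of that gene over the 12 libraries, with genes in rows by role (label colour) and libraries in columns by group and replicate number. RRM2 and TK1 are lower in all 6 libraries with ephrin-B1 siRNA than in all 6 without it, while RRM1, GINS4 and CHAF1A follow the replicate number in every group.

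EphB2-Fc was compared with Ctrl-Fc under the control siRNA to ask what the receptor does to cells with ephrin-B1 in place. None of the 37 genes passed the test (edgeR adjusted p under 0.05). Among all genes tested 0.037% passed, and 3 of the 37 (8.11%) had an unadjusted p under 0.05, as had 7.56% of all genes. The median log2 fold change was 0.014, beside 0.007 over all genes tested, and the values ran from -0.21 (MCM6) to 0.24 (MCM10), so that all 37 lay within 0.25 of no change. The 95% interval lay within 0.5 on either side of 0 for 33 of the 37, and the widest was that of RRM1, from -0.60 to 0.45.

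MCM10, which helps start the helicase, was at 45.2, 45.7 and 44.7 CPM in Ctrl and at 52.6, 53.7 and 54.4 CPM under EphB2. All 3 EphB2 libraries were above all 3 Ctrl libraries, with a log2 fold change of 0.24 ± 0.071 and an adjusted p of 0.402 in edgeR. MCM6, a ring subunit, was at 184, 162 and 167 CPM in Ctrl and lower, at 149, 149 and 147 CPM, under EphB2, also without overlap (-0.21 ± 0.079, adjusted p = 0.57 in edgeR). CDC6, the licensing factor, was at 101, 97.2 and 101 CPM in Ctrl and at 104, 110 and 114 CPM under EphB2 (0.13 ± 0.058, adjusted p = 0.654 in edgeR). In all, 5 of the 37 genes (13.5%) had groups that did not overlap, as had 12.6% of all genes tested.

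When the replicate number was kept as a block, MCM10 (adjusted p = 0.0257 in edgeR) and MCM6 (adjusted p = 0.0268) passed in opposite directions. That is 5.41% of the 37 genes, beside 5.34% of all genes tested in the same blocked fit. Both calls were lost when the blocked fit was made without replicate 3 (adjusted p = 0.244 and 0.202 in edgeR). That fit has fewer libraries, and leaving replicate 3 out lowered the calls over all genes from 1153 to 140. RRM2, at 407, 400 and 405 CPM in Ctrl and 389, 400 and 412 CPM under EphB2, had overlapping groups and a log2 fold change of -0.01 (95% interval -0.14 to 0.12), and TK1 gave 0.02 (95% interval -0.13 to 0.16). E2F1 gave 0.03 (95% interval -0.18 to 0.24) and PCNA -0.04 (95% interval -0.24 to 0.16).

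**Figure D3:**
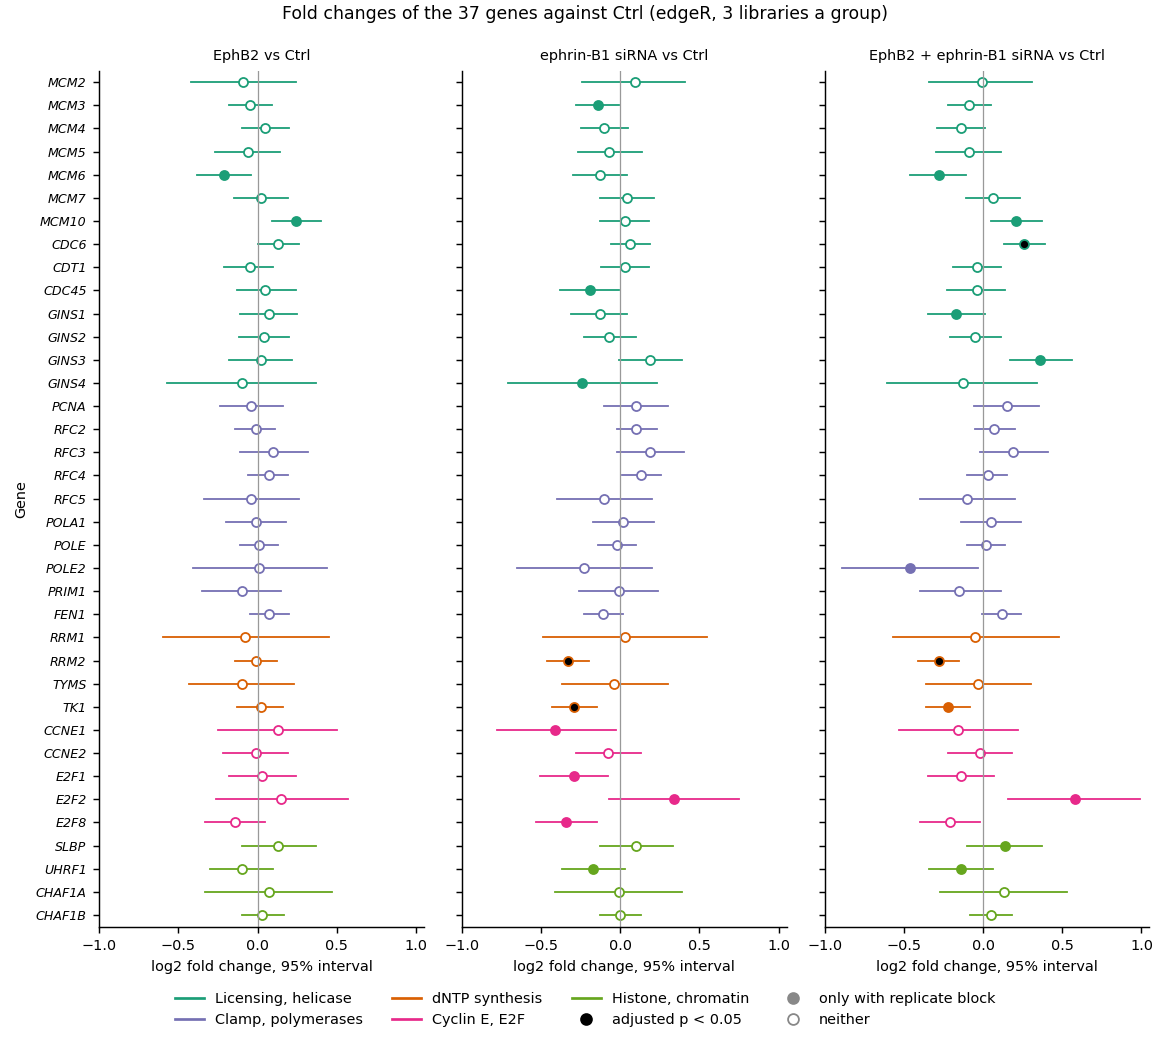
log2 fold change of each of the 37 genes against Ctrl in EphB2, ephrin-B1 siRNA and the combined group, with 95% intervals from the edgeR fit without a block; black points have an adjusted p under 0.05, filled coloured points only with the replicate block, and open points in neither fit. The 3 panels share the Ctrl libraries. RRM2 and TK1 are black in the ephrin-B1 siRNA panel, and RRM2 and CDC6 in the combined panel.

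Ephrin-B1 siRNA was compared with the control siRNA under Ctrl-Fc to see what loss of the ligand does on its own. Of the 37 genes, 2 fell and none rose, both of them enzymes of deoxynucleotide supply. RRM2 was at 407, 400 and 405 CPM in Ctrl and at 340, 306 and 316 CPM after the siRNA. Its groups lay apart, and it fell by 0.33 ± 0.06 on the log2 scale (-20.5%, adjusted p = 0.0198 in edgeR). TK1, which salvages thymidine, was at 522, 531 and 542 CPM in Ctrl and at 429, 429 and 447 CPM after the siRNA, again apart, and fell by 0.29 ± 0.064 (-18.2%, adjusted p = 0.0468). The share of the 37 that passed in either direction was 5.41%, beside 1.81% of all genes, and 1.15% of all genes fell. The test finds more among well-measured genes. Among the 9857 genes with a mean count of at least 207, the lowest mean of the 37 (a comparison added after the data were seen), 3.69% passed and 2.34% fell.

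Both calls depend on single libraries and on the model. RRM2 passed in 15 and TK1 in 8 of the 25 alternative settings. DESeq2 without the block called both (adjusted p = 3.23e-07 and 2.3e-05), and it called 1007 of all genes where edgeR called 391. With the automatic filter on low counts in edgeR they were at 0.0115 and 0.0251. In edgeR with an offset for transcript length, the adjusted p was 0.0857 for RRM2 and 0.173 for TK1, and in limma on log2(TPM + 1) RRM2 gave -0.16 and TK1 -0.09 (adjusted p = 0.796 and 0.869). The median of all genes moved to 0.12 on that scale, and relative to it RRM2 was at -0.28 and TK1 at -0.21. RRM2 lost its call without any 1 of the Ctrl libraries or without replicate 2 or 3 of ephrin-B1 siRNA (5 of 12 libraries left out in turn, adjusted p = 0.0508 to 0.111 in edgeR), and its log2 fold change stayed between -0.38 and -0.30. TK1 lost its call without 9 of the 12 libraries (adjusted p up to 0.215), namely any of Ctrl or ephrin-B1 siRNA, EphB2 replicate 3, or replicate 1 or 3 of the combined group, with log2 fold changes from -0.31 to -0.27. Of the other enzymes of the pool, RRM1, the large subunit of the reductase, gave 0.03 (95% interval -0.49 to 0.55) and TYMS -0.04 (95% interval -0.37 to 0.30). These intervals, from the fit without the block, are wide enough to hold the RRM2 value. By replicate number, RRM1 was at 205, 308 and 273 CPM in Ctrl and at 210, 331 and 262 CPM after the siRNA. TYMS was at 210, 145 and 180 CPM and then at 194, 158 and 169 CPM. The SE of RRM1 was smaller with the block, as given below.

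The 5 cyclin E and E2F genes had a median log2 fold change of -0.294 after ephrin-B1 siRNA, beside -0.003 over all genes tested, and none passed without the block. E2F8, a repressor of the E2F family, was at 25.5, 24.5 and 24 CPM in Ctrl and at 20.5, 18.2 and 19.7 CPM after the siRNA (-0.34 ± 0.088, adjusted p = 0.0879 in edgeR). E2F1, an activator, was at 200, 198 and 190 CPM in Ctrl and at 160, 167 and 153 CPM after it (-0.29 ± 0.097, adjusted p = 0.20). Neither gene had overlapping groups. CCNE1 was at 13.3, 10.6 and 12.7 CPM in Ctrl and at 10.7, 8.65 and 8.22 CPM (-0.41 ± 0.17, adjusted p = 0.368 in edgeR), with the highest siRNA library above the lowest Ctrl library. E2F2, another activator, lay the other way, at 15.1, 11.1 and 12 CPM in Ctrl and 17.9, 15.2 and 15.2 CPM with no overlap (0.34 ± 0.19, adjusted p = 0.533 in edgeR), and CCNE2, which encodes cyclin E2, gave -0.08 (95% interval -0.28 to 0.13).

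With the replicate block 10 of the 37 genes passed, 9 of them lower and 1 (E2F2, adjusted p = 0.0414 in edgeR) higher. The lower ones were RRM2 (adjusted p = 0.00017), TK1 (0.00131), E2F8 (0.00376), GINS4 (0.00639), CCNE1 (0.0117), UHRF1 (0.0139), E2F1 (0.0169), CDC45 (0.0186) and MCM3 (0.0381). In that fit 13.6% of all genes passed and 7.06% were lower, while of the 9857 genes at least as abundant 26.4% passed and 13.5% were lower, beside 27.0% and 24.3% of the 37. Without replicate 3 in that fit, RRM2 remained past the threshold (adjusted p = 0.0279 in edgeR), and TK1 (0.0572), E2F8 (0.06) and the other 7 did not. Calls over all genes fell from 2931 to 830 at the same step. Without any block, 7 of the 37 genes (18.9%) had all 3 siRNA libraries below all 3 Ctrl libraries, as had 8.89% of all genes tested and 12.7% of the 9857 genes at least as abundant. Another 6 (16.2%) had all 3 above, as had 9.16% and 13.7%.

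None of the 14 licensing and helicase genes passed without the block. CDC45, part of the active helicase, was at 53.6, 48.7 and 53.5 CPM in Ctrl and at 45.9, 43.1 and 47.3 CPM (-0.19 ± 0.085), and MCM3 at 353, 334 and 332 CPM and then at 311, 309 and 302 CPM (-0.14 ± 0.061), with no overlap in either gene and adjusted p-values of 0.388 and 0.361 in edgeR. GINS4, which passed with the block, was at 49.7, 81.3 and 65.9 CPM in Ctrl and at 45.7, 68.4 and 53.1 CPM, with overlap. UHRF1, which couples DNA methylation to replication, was at 235, 255 and 252 CPM in Ctrl and at 201, 241 and 219 CPM (-0.17 ± 0.09, adjusted p = 0.51), with overlap. In limma on log2(TPM + 1) MCM3 was at 0.08 and UHRF1 at 0.03, which is -0.04 and -0.09 relative to the median of all genes, so the sign relative to other genes was as in edgeR. The 14 licensing and helicase genes had a median of -0.066 and the 10 clamp and polymerase genes of 0.003. Of the clamp loader subunits, RFC2, RFC3 and RFC4 had all 3 siRNA libraries above Ctrl, with log2 fold changes of 0.10, 0.19 and 0.13 and no call in either fit, and RFC5 gave -0.10. None of SLBP (0.10), CHAF1A (-0.01) and CHAF1B (0.00), which handle histones, passed in either fit.

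**Figure D4:**
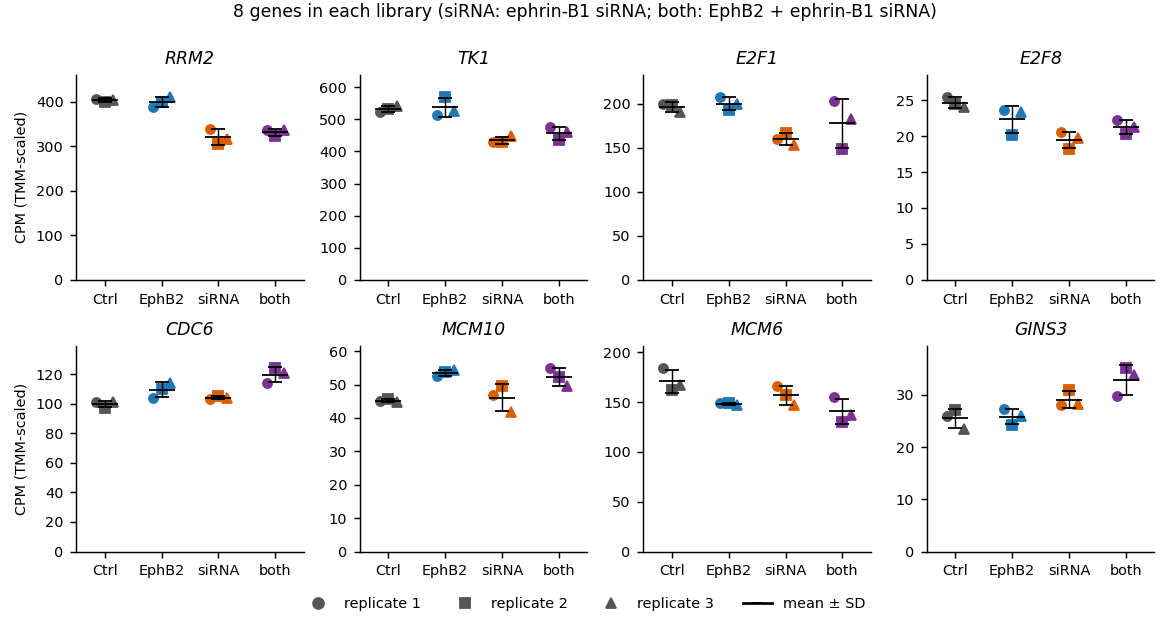
CPM of 8 genes in each library, with symbols for the replicate number and bars for the mean ± SD of 3 libraries; each vertical axis starts at 0. RRM2 is at 400.0 to 407 CPM in Ctrl and at 306 to 340 CPM after ephrin-B1 siRNA, and CDC6 is highest in the combined group (114 to 124 CPM).

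The combined group was set against Ctrl, against EphB2 alone and against ephrin-B1 siRNA alone. The comparisons with Ctrl share its 3 libraries, and those of the combined group share its own. Against Ctrl, 1 gene rose and 1 fell. CDC6, at 101, 97.2 and 101 CPM in Ctrl, was at 114, 124 and 121 CPM in the combined group and rose by 0.26 ± 0.058 (19.6%, adjusted p = 0.0475 in edgeR). RRM2 was at 337, 323 and 336 CPM in the combined group and fell by 0.28 ± 0.06 (-17.8%, adjusted p = 0.0356). These are 5.41% of the 37 genes, beside 2.01% of all genes and 4.18% of the 9857 genes at least as abundant. The CDC6 call was lost without any library but EphB2 replicate 1 (11 of 12 left out in turn, adjusted p = 0.0582 to 0.182), although the log2 fold change remained between 0.23 and 0.30. The RRM2 call was lost without 8 of the 12 (adjusted p up to 0.146), namely any of Ctrl or of the combined group, EphB2 replicate 3 or ephrin-B1 siRNA replicate 3, with log2 fold changes from -0.29 to -0.26. With an offset for transcript length CDC6 gave 0.18 (adjusted p = 0.575) and RRM2 -0.26 (0.213), and in limma on log2(TPM + 1) CDC6 gave 0.07 and RRM2 -0.37 (adjusted p = 1.0 and 0.734), or 0.12 and -0.32 relative to the median of all genes. CDC6 passed in 7 and RRM2 in 10 of the 25 alternative settings. DESeq2 without the block called both (adjusted p = 0.00064 and 2.94e-05), and it called 1145 of all genes where edgeR called 434.

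With the replicate block 11 of the 37 genes passed against Ctrl, 5 higher and 6 lower (29.7% of the 37, beside 15.1% of all genes and 29.5% of the 9857 genes at least as abundant). The higher ones were CDC6, MCM10, GINS3, E2F2 and SLBP and the lower ones RRM2, TK1, MCM6, GINS1, POLE2 and UHRF1. GINS3, a GINS subunit, was at 26, 27.1 and 23.5 CPM in Ctrl and at 29.7, 35.1 and 33.8 CPM in the combined group (0.36 ± 0.091, adjusted p = 0.069 without and 0.00602 with the block in edgeR). POLE2, the small subunit of polymerase epsilon, was at 18.3, 23.2 and 22.7 CPM in Ctrl and at 13, 18.5 and 15.3 CPM (-0.46 ± 0.19, adjusted p = 0.326 without and 0.00341 with the block), and the lowest Ctrl library lay below the highest combined library. E2F2 was at 22.3, 13.8 and 20.8 CPM in the combined group and had the largest fold change of the 37 in this comparison, 0.58 ± 0.19 (adjusted p = 0.174 without and 0.00181 with the block), again with overlap. MCM10, at 54.9, 52.4 and 49.6 CPM, stayed above Ctrl in all 3 libraries (0.21 ± 0.071, adjusted p = 0.192 without and 0.0239 with the block), and MCM6, at 155, 130 and 137 CPM, below it (-0.28 ± 0.079, adjusted p = 0.105 and 0.00132). SLBP, which binds histone mRNA, was at 112, 139 and 126 CPM in Ctrl and at 131, 149 and 134 CPM in the combined group, with overlap. The groups lay apart in 8 of the 37 genes (21.6%), beside 18.3% of all genes and 26.8% of the 9857 genes at least as abundant. SLBP (0.14), GINS1 (-0.17) and UHRF1 (-0.14) passed with the block, with adjusted p-values of 0.0379, 0.0304 and 0.039. Without replicate 3 in the blocked fit, RRM2 (adjusted p = 0.0412) and CDC6 (0.0462) remained past the threshold and the other 9 did not. Over all genes that step lowered the calls from 3261 to 1167.

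Against EphB2 alone, which gives the effect of the siRNA in the presence of EphB2-Fc, no gene of the 37 passed and 0.616% of all genes did, although 8 of the 37 (21.6%) had an unadjusted p under 0.05, as had 10.4% of all genes. RRM2 was at 389, 400 and 412 CPM under EphB2 and at 337, 323 and 336 CPM in the combined group, with no overlap (-0.27 ± 0.06, adjusted p = 0.078 in edgeR). TK1 was at 514, 571 and 526 CPM under EphB2 and at 476, 436 and 459 CPM in the combined group, also apart (-0.23 ± 0.064, adjusted p = 0.162). The values of ephrin-B1 siRNA vs Ctrl, from the other 6 libraries, were -0.33 and -0.29. With the block 8 of the 37 genes passed (21.6%, beside 9.93% of all genes and 19.8% of the 9857 genes at least as abundant). RRM2 (adjusted p = 0.00139), TK1 (0.00815), POLE2 (0.00534), GINS1 (0.00658) and MCM4 (0.0266) were lower and GINS3 (0.0135), E2F2 (0.019) and PCNA (0.0319) higher in that edgeR fit. GINS1 was at 97.3, 96.5 and 91.7 CPM under EphB2 and 87.6, 75.2 and 78.5 CPM in the combined group, MCM4 at 433, 453 and 429 CPM and then 393, 377 and 383 CPM, and PCNA at 258, 248 and 254 CPM and then 320, 260 and 285 CPM. None of these 3 genes had overlapping groups. Under EphB2 alone GINS3 was at 27.2, 24.3 and 25.9 CPM, all below the combined group, while POLE2 (17.4, 27.1 and 20.6 CPM) and E2F2 (15.9, 11.9 and 14.6 CPM) overlapped with it. Groups without overlap were found for 6 of the 37 genes (16.2%), beside 14.5% of all genes and 20.1% of the 9857 genes at least as abundant. None of the 8 calls held without replicate 3, where the calls over all genes fell from 2146 to 333.

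Against ephrin-B1 siRNA alone, which gives the effect of EphB2-Fc in knockdown cells, no gene of the 37 passed (0.116% of all genes did), and 3 (8.11%) had an unadjusted p under 0.05, as had 8.46% of all genes. FEN1, the nuclease that trims Okazaki fragments, was at 152, 155 and 149 CPM in ephrin-B1 siRNA and at 181, 176 and 175 CPM in the combined group (0.22 ± 0.057, adjusted p = 0.227 in edgeR). CDC6 was at 103, 105 and 104 CPM and then at 114, 124 and 121 CPM (0.20 ± 0.058, adjusted p = 0.331). Both had groups apart, as had 4 of the 37 (10.8%) in all, beside 14.6% of all genes and 18.4% of the 9857 genes at least as abundant. FEN1 and CDC6 both passed with the block (adjusted p = 0.00949 and 0.0184 in edgeR), which makes 5.41% of the 37 beside 6.93% of all genes. Both lost that call without replicate 3 (0.145 and 0.227), where the calls over all genes fell from 1496 to 169. In limma on log2(TPM + 1), where the median of all genes moved to -0.20, FEN1 was at -0.09 and CDC6 at -0.13, and relative to that median they were at 0.11 and 0.07, the same direction as in edgeR.

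The interaction, the difference between the EphB2-Fc effects with and without the siRNA, gave no call among the 37 genes in either fit. Over all genes 0.0% passed without the block (edgeR, with 498 genes at an unadjusted p under 0.05 and 2 calls in DESeq2) and 0.00463% with it, and of the 37 none had an unadjusted p under 0.05. The median over the 37 was 0.05, beside -0.009 over all genes. The smallest p was that of E2F8, at 0.27 ± 0.12 (95% interval 0.00 to 0.54, unadjusted p = 0.0526, adjusted p = 1.0 in edgeR). For RRM2 the interaction was 0.06 (95% interval -0.12 to 0.25) and for CDC6 0.07 (-0.11 to 0.25).

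For most of the 37 genes the ratio of 2 replicates was larger than the fold change between groups. A ratio of single libraries varies more than a difference of group means, so these sizes are unlike measures. The count was not made over all genes. The median size of the log2 ratio of replicate 2 to replicate 1 was above the size of the fold change for 32 of 37 genes in EphB2 vs Ctrl and for 24 of 37 in ephrin-B1 siRNA vs Ctrl. RRM1 was at 205, 308 and 273 CPM in replicates 1, 2 and 3 of Ctrl, at 181, 318 and 246 under EphB2, at 210, 331 and 262 after the siRNA and at 198, 310 and 254 in the combined group. Replicate 1 was lowest and replicate 2 highest in all 4 groups. GINS4 (49.7, 81.3 and 65.9 CPM in Ctrl), CHAF1A (81, 114 and 102 CPM), MCM2 (285, 355 and 333 CPM) and RFC5 (64.9, 82.6 and 72.3 CPM) had the same order in all 4 groups. TYMS had the opposite one, at 210, 145 and 180 CPM in Ctrl and at 201, 144 and 178 CPM in the combined group.

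In 20 of the 37 genes (54.1%) the ratio of replicate 2 to replicate 1 had the same sign in all 4 groups, 12 higher and 8 lower, as it did in 45.5% of all genes tested. Replicate 3 lay between the other two in all 4 groups for 12 genes (32.4%, against 19.9% of all genes). The median size of the ratio was 0.15 for the 37 and 0.19 for all genes. RRM2, TK1, FEN1, RFC2, MCM10 and CDC6 had median ratios between -0.04 and 0.06, as had MCM3 (-0.04), GINS2 (0.05) and POLE (0.06). Ratios of opposite sign can give such a median, as in TK1, where they ran from -0.13 to 0.15. The spread between replicates set the error of the fit without a block. The SE of RRM1 was 0.24 without and 0.047 with the block in each comparison with Ctrl, and that of RRM2 0.06 and 0.043.

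**Figure D5:**
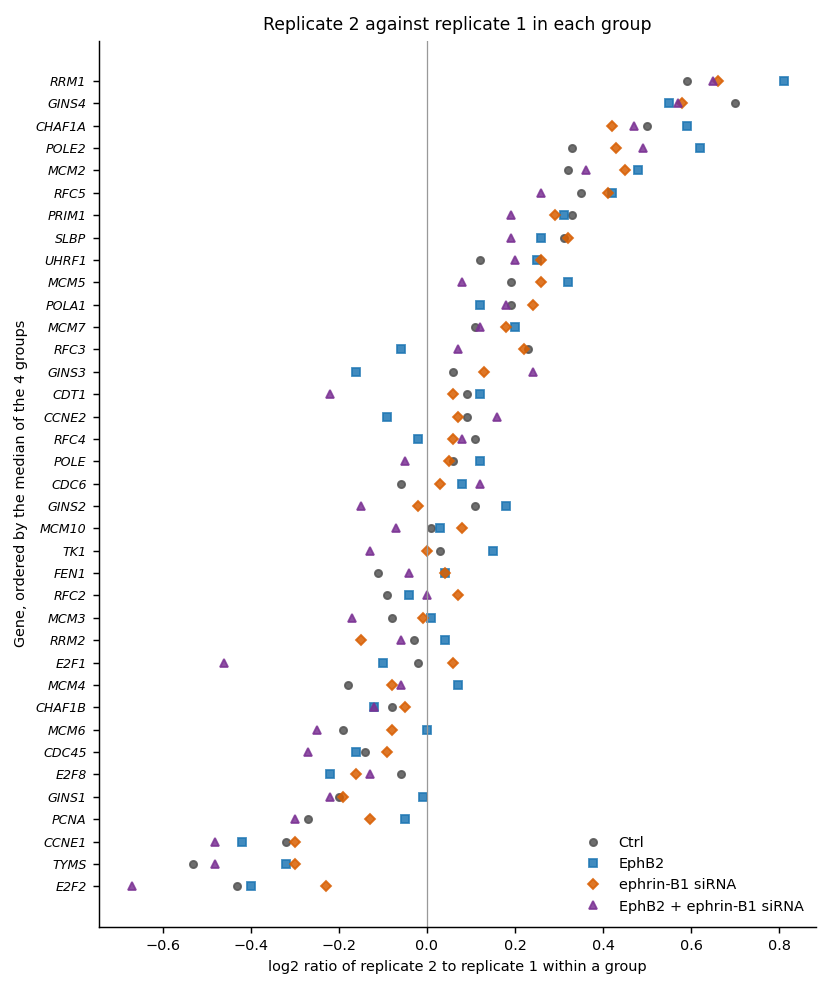
log2 ratio of replicate 2 to replicate 1 in CPM, for each of the 37 genes (ordered by the median) in each of the 4 groups (symbols). RRM1 lies between 0.59 and 0.81 and TYMS between -0.53 and -0.30, while RRM2 lies between -0.15 and 0.04.

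Other genes of the pathway were read from lists chosen for their function. Of 54 other fork and licensing genes, none passed in any comparison without the block, and with it 3 were higher in EphB2 vs Ctrl, where 2.13% of all genes were higher, among them the origin subunit ORC6 (0.25, adjusted p = 0.0151 in edgeR) and the checkpoint adaptor CLSPN (0.25, adjusted p = 0.00576). After ephrin-B1 siRNA their median was 0.051, with 11 higher and 3 lower with the block, where 6.51% of all genes were higher and 7.06% lower (12.9% and 13.5% of the 9857 genes at least as abundant). Of 30 other genes of the nucleotide pool, the dCTP hydrolase DCTPP1, at 28.2, 31.8 and 31.7 CPM in Ctrl, fell to 22.7, 19.9 and 21.7 CPM after ephrin-B1 siRNA (-0.51 ± 0.086, adjusted p = 0.0142), and CTP synthase CTPS1 (0.43 ± 0.063, adjusted p = 0.00624) and the dNTP hydrolase SAMHD1 (0.84 ± 0.19, adjusted p = 0.045) rose in the combined group against Ctrl. SAMHD1 gave 0.60 in EphB2 vs Ctrl (adjusted p = 0.426 without and 0.00104 with the block), and the thymidine phosphorylase TYMP passed without the block in no comparison.

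Among 36 G1/S regulators, 3 rose and 1 fell after ephrin-B1 siRNA (0.657% and 1.15% of all genes). The CDK inhibitor CDKN1A, at 384, 282 and 309 CPM in Ctrl and 497, 529 and 505 CPM after the siRNA, rose by 0.65 ± 0.12 (adjusted p = 0.0259 in edgeR) and the cyclin CCND3 by 0.36 ± 0.08 (0.045), and the inhibitor CDKN1B fell by 0.30 ± 0.058 (0.0263). The median of the list was 0.022. In EphB2 vs Ctrl CDKN1A gave -0.43 (adjusted p = 0.401 without and 0.00725 with the block) and CDKN2C -0.40 (0.117 and 0.00209). CCND1 and MYC, which follow mitogen signals, gave -0.27 and -0.54 after ephrin-B1 siRNA, with adjusted p-values of 0.704 and 0.439 without and 0.000516 and 4.8e-05 with the block. In the combined group 2 of the 36 rose and 2 fell against Ctrl (0.736% and 1.27% of all genes) and 2 rose against EphB2 (0.208% of all genes). Against Ctrl CCND3 rose (0.48 ± 0.08, adjusted p = 0.0114) and CDKN1B (-0.45) and CDKN2C (-0.41) fell, and against EphB2 CCND3 rose (0.46 ± 0.08, adjusted p = 0.0349).

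The 44 G2/M genes, which act later in the cycle, are set beside the 37 as a description. In EphB2 vs Ctrl their median log2 fold change was -0.147, with 40 of 44 below 0 and 1 call (KIF20A, -0.45 ± 0.06, adjusted p = 0.0374 in edgeR), while the 37 had a median of 0.014 with 17 below 0. After ephrin-B1 siRNA the G2/M median was 0.184 with 39 of 44 above 0 and 5 genes that rose (CCNB2, ESPL1, KIF23, KIF2C and NDC80), while the 37 had a median of -0.037 with 14 above 0 and 2 that fell. Of all genes 0.0139% fell in the first comparison and 0.657% rose in the second. With the block 19 of the 44 were lower under EphB2, and 29 were higher and 1 lower after the siRNA, where 3.20% of all genes were lower and 6.51% higher (6.42% and 12.9% of the 9857 genes). The library medians of the G2/M genes lay between -0.21 and -0.12 under EphB2 and between 0.14 and 0.21 after the siRNA, relative to the mean of each gene over the 12 libraries, and those of the 37 genes stayed between -0.07 and 0.07 in all 12.

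Some of these RNAs share sequence with a neighbour. An exon of TYMS overlaps an exon of ENOSF1 on the other strand over 967 bases, CCNE2 overlaps INTS8 over 1629 and GINS1 overlaps NINL over 259, and 15 of the 37 genes have such an overlap. For CDC45, E2F8, GINS3, GINS4, MCM2 and RRM1 the only such neighbours are not among the genes counted here, so their level is not known. The overlaps reach 1113 bases in MCM2 and 1145 in GINS4. Whether strand was used in the counting is not given in the sources used here. Reads that fall inside an overlap therefore cannot be told apart. Pseudogenes named after RRM2 held 0.0152% of its counts, the highest such share among the 37.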

How the data were processed

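RNA from 12 HMC3 libraries (4 groups of 3) was sequenced after rRNA depletion. Per the labels and the methods, the authors made estimated counts, effective lengths and TPM for each transcript with kallisto against Ensembl release 109 cDNA (GRCh38); its version is not given in the sources used here. From the deposited tables, 167067 of 188753 transcripts (88.5%) matched GENCODE 44 and held at least 95.25% of counts in each library. The estimated counts of a gene's transcripts were added up and rounded to whole numbers, and a total of 10 or more across all 12 libraries was required, which left 21601 genes. Effective lengths entered one alternative, as an offset.

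The 37 genes and the other gene lists were chosen with earlier results of these data known. edgeR 4.0.16 (quasi-likelihood, TMM) in R 4.3.3 fitted all 4 groups together, with Benjamini-Hochberg adjustment over all genes and calls at an adjusted p under 0.05. Intervals are at 95%. CPM values had 0.5 added before log2 only in the plots and ratios. Alternatives were a replicate block, DESeq2 1.42.0, limma 3.58.1 on log2(TPM + 1), other filters and scalings, and each library left out. The code was tested on simulated data.

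Submitted file names give libraries of the same replicate number the same experiment number, so the numbers were taken as pairs in the fits with the replicate block. The main fit did not use them. The deviations of same-numbered libraries from their group means had correlations between 0.49 and 0.59 (replicate 1), 0.53 and 0.58 (replicate 2), and 0.02 and 0.09 (replicate 3) over 6 pairs each. Such deviations cancel out within a group, so a replicate that lies between the others can give low correlations even if paired. The low values therefore cannot show whether the libraries of replicate 3 were paired, and blocked calls are also given without it. P-values measure the spread between these libraries.

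Values per library are given for those of the 37 genes past the threshold in either fit. Of the other lists, examples were taken from those with the smallest p in EphB2 vs Ctrl, those called without the block, and EFNB1, CCND1, CDKN1A, MYC, SAMHD1 and TYMP. Genes outside that rule were named after their values were seen. Some genes of these lists are not reported here.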

Additional observations from a re-analysis of the deposited data

How the results depend on the processing

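The replicate block moved the number of the 37 genes called to 2 in EphB2 vs Ctrl, 10 in ephrin-B1 siRNA vs Ctrl, and, for the combined group, 2 against ephrin-B1 siRNA, 8 against EphB2 and 11 against Ctrl, and the block in DESeq2 gave 2, 8, 2, 8 and 12. Over all 21601 genes the block called 1153, 2931, 1496, 2146 and 3261 in edgeR, in the same order. The block in DESeq2 called 1099, 2431, 1275, 1819 and 2735 of them. With the block but without replicate 3 the count in ephrin-B1 siRNA vs Ctrl was 1, and the median of the combined group against EphB2 turned to 0.028. DESeq2 without the block called 1, 3 and 5 of the 37 genes in the combined group against ephrin-B1 siRNA, EphB2 and Ctrl. Of all 21601 genes it called 270, 658 and 1145 there. In ephrin-B1 siRNA vs Ctrl it called RRM2 and TK1, as edgeR did. Without a filter on low counts, 1 of the 37 was called in ephrin-B1 siRNA vs Ctrl and 0 in the combined group against Ctrl (312 and 326 of all 29336 genes). In both, 0 of the 37 genes were called by limma on log2(TPM + 1), by edgeR with a length offset and by edgeR on only the groups compared. Over all genes limma called 0 and 4, the length offset 121 and 125, and the fit on only the groups compared 88 and 93. Leaving out libraries gave 0 to 2 in each of these comparisons.

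On the TPM scale the median log2 change of all genes moved to 0.12 in ephrin-B1 siRNA vs Ctrl, -0.20 in the combined group against ephrin-B1 siRNA and -0.17 in the interaction. The median of the 37 was -0.082 in EphB2 vs Ctrl, 0.171 in ephrin-B1 siRNA vs Ctrl, -0.265, -0.129 and -0.167 in the combined group against ephrin-B1 siRNA, against Ctrl and in the interaction. Relative to all genes these were -0.05, 0.05, -0.07, -0.08 and 0.01. MCM3 (0.08) and UHRF1 (0.03) in ephrin-B1 siRNA vs Ctrl and CDC6 (-0.13) and FEN1 (-0.09) in the combined group against ephrin-B1 siRNA had the opposite sign there, but relative to the median of all genes they were at -0.04, -0.09, 0.07 and 0.11, in the direction found by edgeR. Leaving out libraries put the median at -0.089 to -0.014 in ephrin-B1 siRNA vs Ctrl, -0.047 to 0.026 in the combined group against EphB2 and -0.004 to 0.076 in the interaction. The cause of the other changes was not tested.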
